A study of Mus musculus with 40 samples.

Results

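The resting translatome of hypothalamic astrocytes was described from 14 of the 40 libraries of the series, namely the pull-down (IP) and the supernatant (SN) of 7 tissue samples from sham-operated mice fed chow for 4 weeks. The samples were chosen by the fraction, the operation and the diet in their labels, and each pull-down was set beside the supernatant that carries the same sample number. All animals of the series carried Aldh1l1 eGFP-L10a, a transgene that marks ribosomes with green fluorescent protein fused to their subunit L10a wherever Aldh1l1 control sequences are active. The tissue was microdissected hypothalamus, and the sham operation was the control for orchiectomy, the removal of the testes. The other 26 libraries came from sham mice and orchiectomised mice on a high-fat diet and were used only to ask whether the difference between the fractions was another one on chow. Age is not given in the labels, and neither is whether a sample number is 1 mouse or a pool, so the spread behind each p-value is that between these samples and may be partly technical.

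Astrocytes are glial cells that take up glutamate and potassium released by neurons, store glycogen, recycle transmitters as glutamine and line blood vessels with their end-feet. In the hypothalamus they sit beside the neurons that set food intake and energy use. Translating ribosome affinity purification, or TRAP, uses the tag to fish out ribosomes of 1 cell class together with the messages they carry, so a message of that class is more abundant in the pull-down than in what the beads leave behind. Messages of other cells can enter the pull-down as carry-over, or where those cells also make the tag. The label rests on the Aldh1l1 driver, and which cells other than astrocytes carried the tag in these animals was not measured.

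The libraries hold 1 tag near the 3' end of each message, so a level does not need to be divided by gene length, and levels of different genes can be set side by side. Levels are CPM, the share of a gene in the scaled counts of its library, given as the median of 7 libraries with the lowest and the highest library, and fold changes are log2 values of pull-down over supernatant with their standard error (SE). The pull-downs held 10663610 to 14067022 counts each, against 9280869 to 10975811 for the supernatants. Several libraries stood apart. The pull-down of sample 8 had the most endothelial, mural, neuronal, microglial and red blood cell marker signal of the 7 pull-downs. It also had the most Gm42418, a gene on chromosome 17 (39846958 to 39848788, GRCm38). The supernatants of samples 8 and 23 held the most astrocyte marker signal, and those of samples 15 and 19 held the least Malat1. Each count given first below was therefore also taken without samples 8 and 23 and without samples 15 and 19.

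The pull-down and the supernatant differed over most of the genes measured. Of 14113 genes tested, 5407 (38.3%) were called higher in the pull-down and 5393 (38.2%) lower, at an adjusted p under 0.05 in the quasi-likelihood test of edgeR with the sample number as a block, together 76.5% of the genes. A stricter test, of a difference beyond 2-fold, called 2469 genes (17.5%) higher and 2846 (20.2%) lower, together 37.7%. Without samples 8 and 23 the stricter test called 2326 higher and 2954 lower, and without samples 15 and 19 it called 2314 higher and 2804 lower. More than 8-fold differences were seen for 622 genes higher in the pull-down and 1126 genes lower in it. The median over all genes tested was a log2 fold change of 0.02. Counts of list members called, given below, are to be read beside the 38.3% and 38.2% over all genes. Every gene named below with a fold change passed the first test unless it is said not to. CPM values are shares of a library, so more astrocyte messages and fewer messages of other cells cannot be told apart, and neither can fewer cells of a type and less RNA per cell.

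The genes past 2-fold in either direction took a similar share of their own fraction. Those higher in the pull-down held 47.9% of the counts (42.3% to 50.6%) in the pull-downs, against 6.07% (5.76% to 8.38%) in the supernatants. Those lower in the pull-down held 4.85% (4.55% to 5.93%) of the pull-down counts, against 48.2% (47.5% to 52.0%) of the supernatant counts. Without the mitochondrially encoded genes the second set still held 26.4% of the supernatant counts (23.5% to 27.1%), against 4.20% (3.83% to 4.79%) in the pull-downs. The 2 sets were chosen by this contrast, so these shares are a description.

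**Figure D1:**
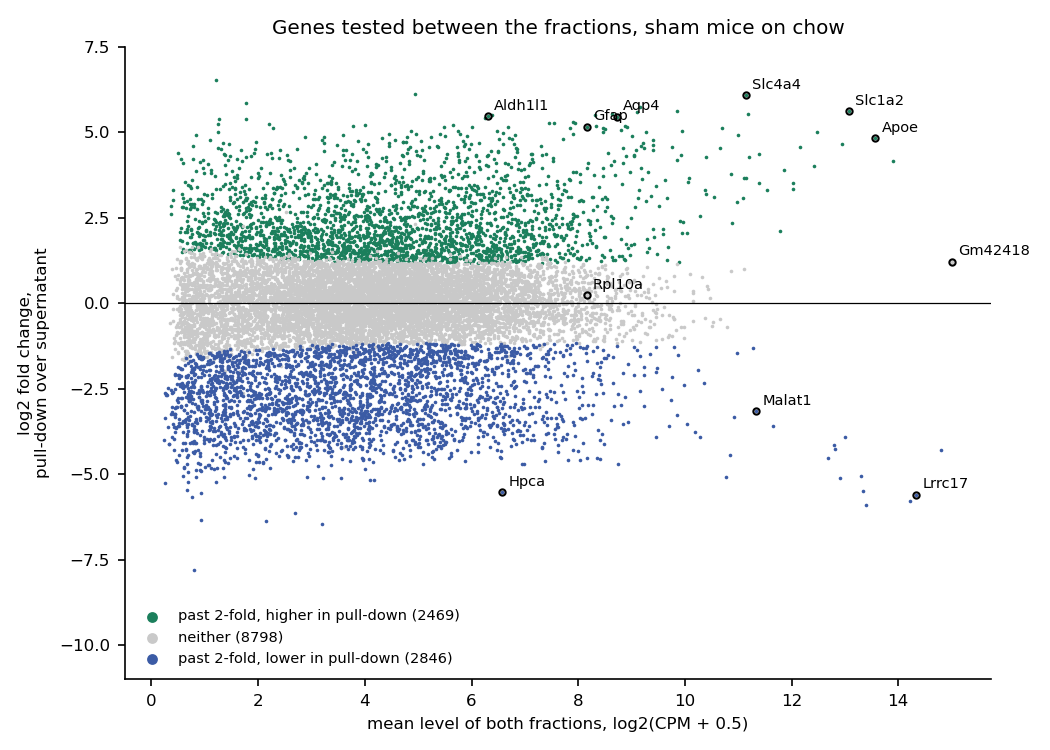
Each point is 1 of the genes tested, with its mean level over both fractions on the x axis, as log2(CPM + 0.5), and its log2 fold change of pull-down over supernatant on the y axis. The 2469 genes past 2-fold higher in the pull-down are green, the 2846 lower are blue, and Slc1a2 and Apoe stand out among the green points as both abundant and enriched.

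The 4 genes that mark the cells were all far higher in the pull-down. Aldh1l1 (chromosome 6, 90486427 to 90600203), a folate enzyme and the gene whose control sequences drive the tag, had 129, 146 and 185 CPM (lowest, median and highest library) in the pull-downs, against 1.67, 2.35 and 8.97 CPM in the supernatants. Its log2 fold change was 5.48 ± 0.34 (adjusted p = 4.44e-08). Slc1a2 (chromosome 2, 102658659 to 102790784), the main glutamate transporter of the forebrain, had 13693, 16101 and 21794 CPM (lowest, median and highest library) in the pull-downs, against 178, 289 and 930.5 CPM in the supernatants. The log2 fold change of Slc1a2 was 5.61 ± 0.29 (adjusted p = 2.79e-09), and by mean level only Gm42418, Sparcl1 and Apoe stood above it in the pull-down. Gfap (chromosome 11, 102887336 to 102900912), the intermediate filament of astrocytes, had 389.9, 587 and 697 CPM (lowest, median and highest library) in the pull-downs, against 8.12, 13.0 and 25.5 CPM in the supernatants. Aqp4, the water channel of the end-feet, had 575, 881 and 1024 CPM (lowest, median and highest library) in the pull-downs, against 8.07, 16.1 and 59.1 CPM in the supernatants. Their log2 fold changes were 5.17 ± 0.23 and 5.46 ± 0.40 (adjusted p = 1.11e-09 and 2.75e-07). The second table that the authors deposited holds only 65.8% of the Aqp4 counts, so the Aqp4 level is uncertain. The ranges of the fractions did not overlap for any of the 4 genes, as was so for 7683 of the genes tested (54.4%).

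**Figure D2:**
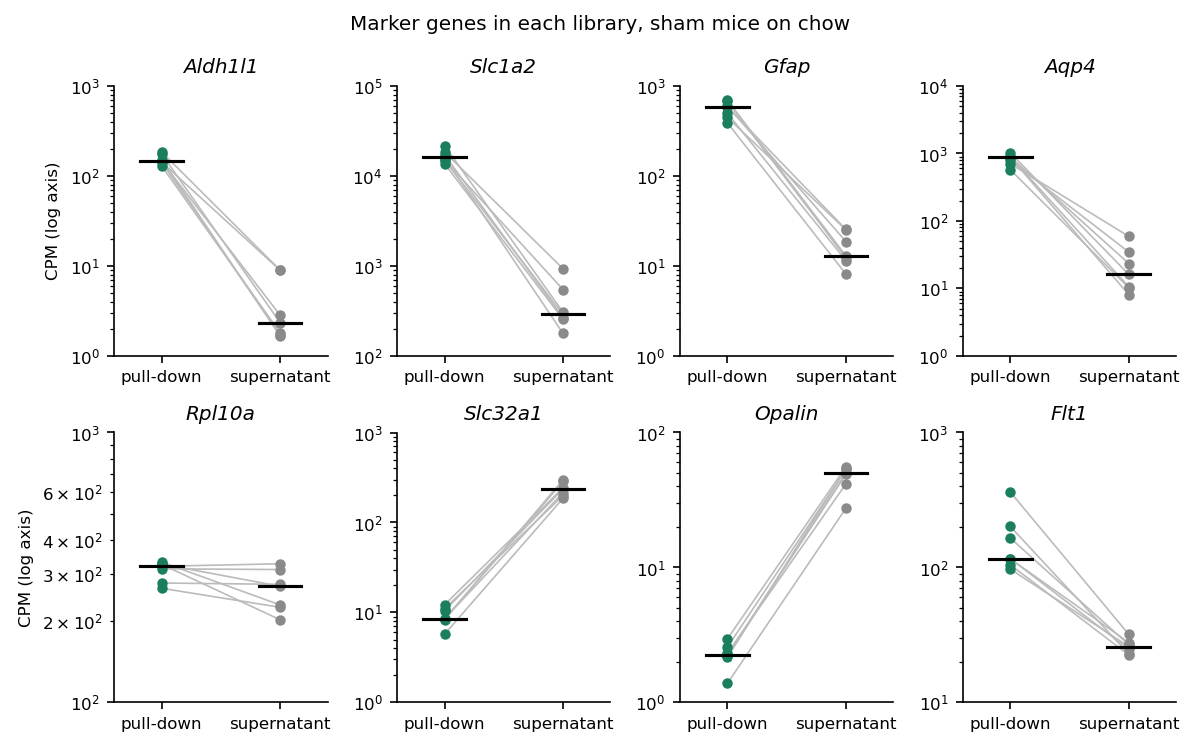
Levels of 8 genes in each of the 7 pull-downs (left of each panel, green) and the 7 supernatants (right, grey), in CPM on log axes, with lines joining the libraries of 1 sample number and bars at the medians. The 4 astrocyte genes in the top row lie higher in all 7 pull-downs, Rpl10a overlaps between the fractions, Slc32a1 and Opalin lie lower in the pull-downs, and Flt1 lies higher with its highest value in sample 8.

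The bases in front of the Aldh1l1 start are shown because this stretch belongs to the gene that drives the tag. They come from RefSeq on GRCm38.p6 and read 5′ to 3′ towards the start, with capitals on the letters TGGGAA or their reverse complement TTCCCA, the core that the Notch effector RBPJ is known to bind.
Aldh1l1 (chr6:90550543-90550792, + strand): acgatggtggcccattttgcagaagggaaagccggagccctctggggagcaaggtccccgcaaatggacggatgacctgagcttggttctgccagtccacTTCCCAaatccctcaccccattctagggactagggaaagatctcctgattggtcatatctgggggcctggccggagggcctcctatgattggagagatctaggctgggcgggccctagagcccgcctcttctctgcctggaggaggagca
The match began 150 bases before the start that RefSeq gives, which lies inside the gene span above.

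Rpl10a, the gene of the ribosomal protein that carries the tag, was not called. It had 265, 319 and 331 CPM (lowest, median and highest library) in the pull-downs, against 202, 269 and 326 CPM in the supernatants, the ranges overlapped, and its log2 fold change was 0.24 ± 0.11 (adjusted p = 0.0652). It was called higher without samples 15 and 19 (0.34, adjusted p = 0.0237), in limma voom (0.24, adjusted p = 0.0494) and with all genes of at least 1 count fitted (0.30, adjusted p = 0.0337). Counts at this symbol cannot separate the tagged from the native message.

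All 18 astrocyte markers of the list were called higher in the pull-down, and all 18 passed the 2-fold test, with a median log2 fold change of 5.13. Their summed level was 48023 to 59658 CPM in the pull-downs and 1599 to 4359 CPM in the supernatants. Besides the 4 genes above and Slc4a4, Acsbg1, an acyl-CoA synthetase, reached 5.54 ± 0.44 and Gja1, the gap junction protein connexin 43, 5.19 ± 0.35. No marker of the list went against the astrocyte label, though markers of endothelium, given further on, were higher as well. The summed levels of mural cell, fibroblast, tanycyte and ependyma, and choroid plexus markers were also higher in the pull-downs, without overlap. The smallest changes on the astrocyte list were those of Aldoc, the brain aldolase (3.9 ± 0.21), S100b, a calcium-binding protein (3.66 ± 0.15), and Glul, glutamine synthetase (3.35 ± 0.17). Glul was still read at 7596 CPM (6736 to 8866) in the pull-downs, against 748 CPM (532 to 948) in the supernatants.

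The genes that stayed highest even in their weakest pair included transporters, receptors and the markers themselves. The 12 genes, chosen by these ratios, were Slc1a2, S1pr1, Gfap, Bmpr1b, Slc4a4, Plpp3, Kcnj16, Aldh1l1, Htra1, Heph, Plekho2 and Itpkb. S1pr1, a receptor for sphingosine-1-phosphate, had 1789 CPM (1546 to 2339.7) in the pull-downs, against 32.9 CPM (19.6 to 96.7) in the supernatants, with paired log2 ratios of 4.21 to 6.36. Slc4a4, the sodium bicarbonate cotransporter that handles acid, had 4093 CPM (3995 to 6022) in the pull-downs, against 52.0 CPM (16.8 to 268) in the supernatants, with paired log2 ratios of 4.11 to 7.95. Bmpr1b, a receptor for bone morphogenetic proteins, had 169.8 CPM (139 to 193) in the pull-downs, against 4.60 CPM (3.43 to 9.58) in the supernatants. Kcnj16, a subunit of inward rectifier potassium channels, had 460.4 CPM (390.3 to 597) in the pull-downs, against 9.97 CPM (5.38 to 29.7) in the supernatants. Plpp3, a lipid phosphatase, and Htra1, a secreted protease, had log2 fold changes of 5.55 ± 0.35 and 4.97 ± 0.23. Plekho2 and Itpkb, an inositol trisphosphate kinase, had 4.4 ± 0.16 and 4.29 ± 0.16. The adjusted p of these 12 genes lay between 4.64e-10 and 4.25e-07.

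The genes that stayed lowest even in their least depleted pair included neuronal and oligodendrocyte genes. The 12, chosen in the same way, were Lrrc17, Hpca, Panx2, A2ml1, Slc32a1, Pvalb, Opalin, Tmem163, Pianp, Hapln4, Sult4a1 and Rbfox3. Hpca, the neuronal calcium sensor hippocalcin, had 3.85 CPM (2.49 to 6.07) in the pull-downs, against 187 CPM (141 to 257) in the supernatants. Slc32a1, which loads GABA into vesicles, had 8.49 CPM (5.72 to 12.1) in the pull-downs, against 236 CPM (186 to 298) in the supernatants. Pvalb, the calcium buffer of a class of inhibitory neurons, had 3.08 CPM (2.31 to 4.35) in the pull-downs, against 79.4 CPM (53.8 to 97.9) in the supernatants, with paired log2 ratios of -4.90 to -4.07. Panx2, a pannexin channel, kept its ratios within -4.74 to -4.26. Opalin, a myelin protein, had 2.24 CPM (1.38 to 2.96) in the pull-downs, against 50.1 CPM (27.5 to 55.7) in the supernatants, but the second deposited table holds 0.756% of its counts and its level is uncertain. A2ml1 and Rbfox3, the neuronal nuclear protein NeuN, had log2 fold changes of -5.16 ± 0.24 and -4.16 ± 0.12. Tmem163, Pianp, Hapln4 and Sult4a1 lay between -4.44 ± 0.12 and -4.57 ± 0.18.

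Lrrc17 (chromosome 5, 21543559 to 21575904) was the most abundant gene of the supernatant outside the mitochondrial genes. It had 591, 838 and 1049.7 CPM (lowest, median and highest library) in the pull-downs, against 31854, 40800.0 and 51436 CPM in the supernatants, with a log2 fold change of -5.6 ± 0.19 (adjusted p = 3.35e-10). Lrrc17 lies inside Fbxl13, which the annotation places on the opposite strand, and the strand setting of the counting is not given in the sources used here.

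By level, astrocyte messages led the pull-down. After Gm42418 its most abundant genes included Sparcl1, Apoe, Slc1a2, Sparc, Cst3, Ndrg2, Cpe and Glul. Sparcl1, the matrix protein hevin, had 33107 CPM (16696 to 37886) in the pull-downs, against 1402 CPM (815 to 3599) in the supernatants. Apoe, the main lipid carrier of the brain, had 23751 CPM (18757 to 27668) in the pull-downs, against 590.5 CPM (479 to 1688) in the supernatants. Sparc, a relative of hevin, had 11005 CPM (9747 to 12231) in the pull-downs, against 274 CPM (175 to 1006) in the supernatants. Cst3, the protease inhibitor cystatin C, had a log2 fold change of 4.02 ± 0.19, Ndrg2 of 4.58 ± 0.32 and Cpe, carboxypeptidase E, of 3.53 ± 0.17. Together the 10 most abundant genes took 15.6% of the pull-down counts (13.7% to 23.9%), against 2.20% (1.14% to 3.72%) of the supernatant counts. Without Gm42418 the other 9 took 13.5% (10.6% to 14.0%) of the pull-down counts, against 0.496% (0.394% to 1.20%) of the supernatant counts.

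The supernatant was led by mitochondrial messages. Next to the mitochondrial genes its most abundant included Lrrc17, Gm42418, Malat1, Meg3, Hsp90aa1, Mbp and Ttc3. Mbp, a main myelin protein, had a log2 fold change of -3.92 ± 0.15. Hsp90aa1, a heat shock protein, was closer to even, at -1.47 ± 0.11. Ttc3 had -2.32 ± 0.12, though the second deposited table holds 1.02% of its counts. Gm42418 had 19801 CPM (10749 to 136920.0) in the pull-downs, against 16713 CPM (6312 to 29622) in the supernatants, with overlapping ranges. Its log2 fold change of 1.22 ± 0.41 (adjusted p = 0.0182) was not called without samples 8 and 23 (0.70, adjusted p = 0.274) nor without samples 15 and 19 (1.16, adjusted p = 0.0785). Leaving out sample 8, 21 or 23 alone ended the call too, at log2 fold changes of 1.00, 0.96 and 0.99 (adjusted p of 0.0763, 0.0780 and 0.0729).

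Shares of the library taken by 5 gene groups were compared over the 7 pairs with exact paired permutation tests (two-sided, smallest possible p = 0.0156, adjusted over 5 measures). The 13 mitochondrially encoded mRNAs, which mitochondrial and not tagged cytosolic ribosomes translate, took 0.433% of the counts (0.390% to 0.664%) in the pull-downs, against 16.0% (14.1% to 19.3%) in the supernatants. The mean difference was -15.9 percentage points, in the same direction in 7 of 7 pairs (exact p = 0.0156, adjusted p = 0.0195). Messages of 83 cytosolic ribosomal protein genes took 2.64% (1.94% to 3.06%) in the pull-downs, against 3.93% (3.16% to 4.69%) in the supernatants, a mean difference of -1.33 points (lower in 7 of 7 pairs, exact p = 0.0156, adjusted p = 0.0195). The long noncoding RNAs of the list took 0.149% (0.112% to 0.190%), against 1.08% (0.644% to 1.29%), a difference of -0.849 points with the same exact p = 0.0156 and adjusted p = 0.0195. The 100 most abundant genes of each library took 34.1% (31.5% to 39.7%) in the pull-downs, against 39.9% (37.0% to 44.9%) in the supernatants, again lower in 7 of 7 pairs (exact p = 0.0156, adjusted p = 0.0195). In the supernatants these 100 include mitochondrially encoded mRNAs, whose set took 16.0% of the counts. The comparison without them was not made. Gm42418 did not pass (difference 3.11 points, higher in 5 of 7 pairs, exact p = 0.0938, adjusted p = 0.0938).

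Within the mitochondrial set all 13 messages were called lower, by unequal amounts. mt-Cytb and mt-Nd4 had log2 fold changes of -5.9 ± 0.20 and -5.8 ± 0.19, while mt-Nd4l and mt-Nd6 had -3.54 ± 0.22 and -2.56 ± 0.17. Of 18 tested long noncoding RNAs 15 were called lower and 1 higher, with a median of -2.45. Malat1, which stays in nuclei, had 449.5 CPM (327 to 721) in the pull-downs, against 5386 CPM (1430.0 to 7979) in the supernatants, and its lowest supernatants were those of samples 15 and 19. Meg3 had a log2 fold change of -3.33 ± 0.23, Mir124a-1hg, the host of a neuronal microRNA, -3.8 ± 0.31, and Rian -3.53 ± 0.23, although the second table holds 16.1% of the Rian counts. The exception was Pantr1, a noncoding RNA next to the Pou3f3 gene, at 144 CPM (125 to 155) in the pull-downs, against 17.5 CPM (15.3 to 27.6) in the supernatants (2.91 ± 0.14, adjusted p = 1.19e-09).

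Markers of other cell types were read next, since the tissue holds many of them. For neurons, 0 of 14 tested members were called higher in the pull-down and 14 lower, with 0 not called and a median log2 fold change of -3.82. Slc32a1 and Rbfox3, given above, were the most depleted, and Gad2, which makes GABA, and Syp, a synaptic vesicle protein, were among the least, at -3.4 ± 0.16 and -3.28 ± 0.11. The summed level of the neuron markers was 340.3 to 732 CPM in the pull-downs and 5700.2 to 6918 CPM in the supernatants. For oligodendrocytes, 0 of 10 tested members were called higher in the pull-down and 10 lower, with 0 not called and a median log2 fold change of -3.78, and the sum was 804 to 1360.5 CPM in the pull-downs and 7788 to 11237 CPM in the supernatants. Mog and Mag, on the surface of myelin, had -4.38 ± 0.21 and -4.11 ± 0.24, while Cnp, a myelin enzyme, and Aspa, an enzyme that breaks down N-acetylaspartate, were near even at -0.36 ± 0.11 and -0.54 ± 0.12. The Cnp call was lost without samples 15 and 19 (-0.26, adjusted p = 0.0648). For microglia, 0 of 12 tested members were called higher in the pull-down and 12 lower, with 0 not called and a median log2 fold change of -2.88, and the sum was 46.1 to 117 CPM in the pull-downs and 340.4 to 458 CPM in the supernatants. Siglech, Tmem119 and P2ry12, which mark resident microglia, had -3.89 ± 0.17, -3.85 ± 0.26 and -3.56 ± 0.17, and the least depleted were Ctss and Aif1 at -2.01 ± 0.20 and -1.93 ± 0.21. Red blood cell messages were lower too, with 5 of 5 called and a summed level of 417 to 1609 CPM in the pull-downs and 2344 to 4398 CPM in the supernatants. Hba-a1, Hba-a2 and Hbb-bs had -2.24 ± 0.22, -2.15 ± 0.26 and -2.11 ± 0.24, and the near-identical globin copies share reads.

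Oligodendrocyte precursors split. Of 8 tested markers 5 were called lower and 2 higher, with a median of -1.68 and a summed level of 328 to 522 CPM in the pull-downs and 219 to 328 CPM in the supernatants. Over all genes 38.2% were called lower and 38.3% higher. Sox10 and Gpr17, of the oligodendrocyte line, had -4.1 ± 0.22 and -4.02 ± 0.25, with the Sox10 level uncertain because the second table lists it at 0. Cspg4, the NG2 proteoglycan of precursors and pericytes, had 22.7 CPM (14.5 to 70.2) in the pull-downs, against 6.28 CPM (4.27 to 8.67) in the supernatants (2.37 ± 0.33). Its 2 highest pull-downs were those of samples 8 and 23, at 70.2 and 63.6 CPM, the 2 with the highest endothelial sums. Olig1, a factor of the oligodendrocyte line, had 366 CPM (254 to 428) in the pull-downs, against 132 CPM (89.9 to 147) in the supernatants (1.46 ± 0.15).

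Endothelial markers went with the pull-down. For endothelium, 12 of 12 tested members were called higher in the pull-down and 0 lower, with 0 not called and a median log2 fold change of 1.61, and 6 of the 12 passed 2-fold. The summed level was 264 to 1041 CPM in the pull-downs and 106 to 178 CPM in the supernatants. Flt1, a receptor for vascular endothelial growth factor, had 116 CPM (97.2 to 362) in the pull-downs, against 25.9 CPM (22.4 to 31.9) in the supernatants (2.53 ± 0.19, adjusted p = 9.19e-08), higher in 7 of 7 pairs. Cdh5, the endothelial cadherin, and Abcb1a, the drug pump of the blood-brain barrier, had 2.27 ± 0.19 and 2.17 ± 0.30, while Cldn5, Esam and Pecam1, of endothelial junctions, had 1.17 ± 0.28, 1.05 ± 0.24 and 0.69 ± 0.19. Without samples 8 and 23, 9 of the 12 were called higher, and the Pecam1 call was lost (0.31, adjusted p = 0.103). The endothelial sum in the pull-down of sample 8, 1041 CPM, was above the range of the other 6 (263.7 to 575.9 CPM). The red blood cell sum was highest in the same pull-down (1609 CPM, against 417.0 to 787.1 CPM in the other 6), and its part in the endothelial result was not tested.

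Among 7 tested mural cell markers 3 were called higher and 2 lower (median 0.43), beside 38.3% and 38.2% over all genes. Pdgfrb, the receptor that pericytes use, had 26.2 CPM (23.5 to 34.4) in the pull-downs, against 3.79 CPM (2.56 to 5.83) in the supernatants (2.86 ± 0.13), Abcc9 had 1.11 ± 0.30 and Vtn 0.95 ± 0.15, while Acta2, smooth muscle actin, had -1.31 ± 0.31. The Abcc9 call was lost without samples 8 and 23 (0.59, adjusted p = 0.0882). The number called lower was 1 without samples 15 and 19, and also without sample 7, 15 or 19 alone. Of 8 fibroblast markers 5 were called higher and 1 lower (median 0.80), with Slc6a13 at 1.72 ± 0.20, Col1a2 at 1.34 ± 0.22 and Igf2 at 1.3 ± 0.20. The 1 called lower, Lum, a matrix protein, had -0.99 ± 0.42 (adjusted p = 0.0455) and was not called without samples 15 and 19, without sample 7, 12, 15, 19 or 23 alone, without the replicate block (adjusted p = 0.0578) or with all genes of at least 1 count fitted (adjusted p = 0.062). The sum was 266 to 703 CPM in the pull-downs and 151 to 206 CPM in the supernatants, with the highest value in the pull-down of sample 19.

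Of 12 tanycyte and ependyma markers 4 were called higher and 5 lower, with a median of -0.06 and sums of 81.2 to 112 CPM in the pull-downs and 56.9 to 77.9 CPM in the supernatants. Both shares lay near those over all genes (38.3% higher, 38.2% lower). Rarres2, the chemerin gene of tanycytes, had 33.3 CPM (26.4 to 37.6) in the pull-downs, against 9.37 CPM (6.59 to 13.3) in the supernatants (1.83 ± 0.14), and Nes, Foxj1 and Col23a1 had 1.2 ± 0.24, 0.83 ± 0.12 and 0.83 ± 0.15. Frzb, a Wnt antagonist, and Ccdc153 and Tmem212, of ependymal cilia, had -2.41 ± 0.23, -2.73 ± 0.33 and -3.36 ± 0.43. Of 6 listed choroid plexus markers 4 were tested, with 2 called higher, 0 lower and 2 not called. Their sum was 85.5 to 114 CPM in the pull-downs and 5.78 to 16.0 CPM in the supernatants, and most of the pull-down sum was Clic6. Clic6, a chloride channel protein, had 86.1 CPM (73.6 to 106) in the pull-downs, against 3.06 CPM (2.17 to 10.6) in the supernatants (4.36 ± 0.27, adjusted p = 2.41e-08), with no overlap, while Kcnj13 had 2.52 ± 0.27 at a median of 4.58 CPM in the pull-downs, against 0.937 CPM in the supernatants.

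**Figure D3:**
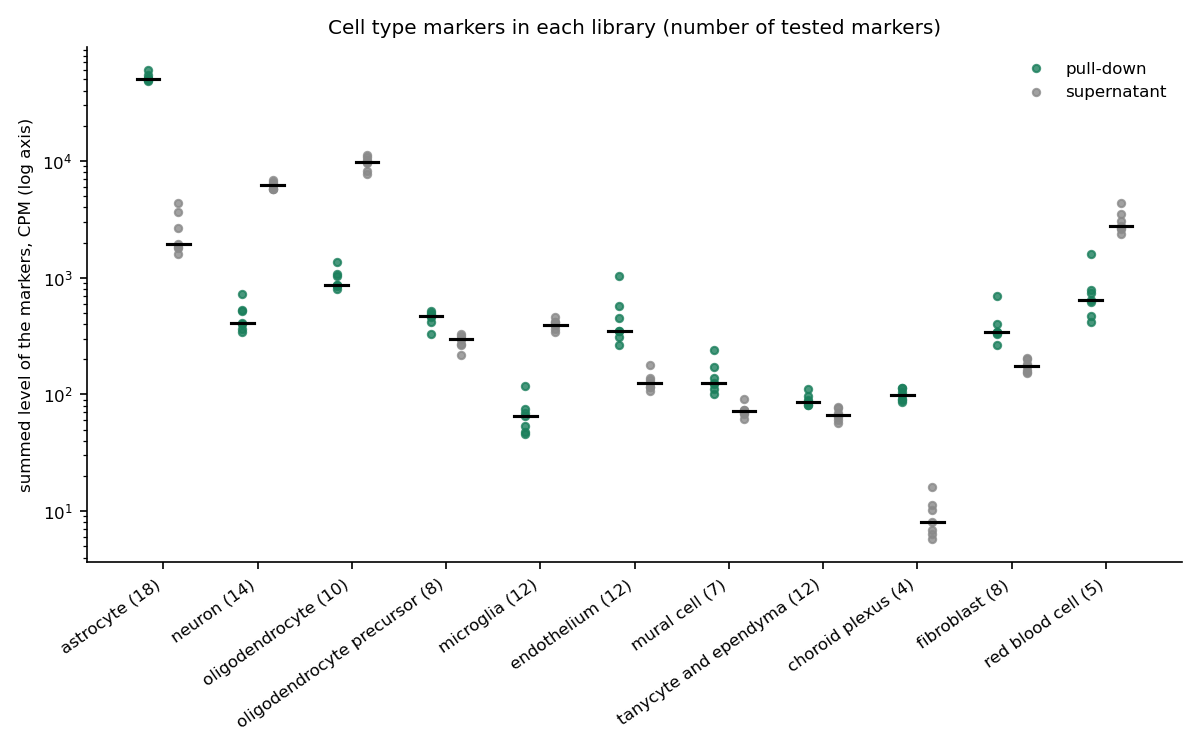
Summed level of the tested markers of 11 cell types in each library, in CPM on a log axis, with the 7 pull-downs in green to the left of the 7 supernatants in grey and bars at the medians. Astrocyte, endothelial, mural cell, tanycyte and ependyma, choroid plexus and fibroblast sums lie higher in the pull-downs, without overlap. Those of neurons, oligodendrocytes, microglia and red blood cells lie higher in the supernatants, and those of oligodendrocyte precursors overlap.

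How strongly the fractions separated varied from pair to pair. The median log2 ratio of the astrocyte markers was 3.47 in sample 8 and 4.00 in sample 23, against 4.94 to 6.00 in the other 5. The astrocyte sums of samples 8 and 23 lay inside the range of the other pull-downs, and their supernatants held the most, with 4359 CPM in the supernatant of sample 8 and 3629 CPM in that of sample 23.

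**Figure D4:**
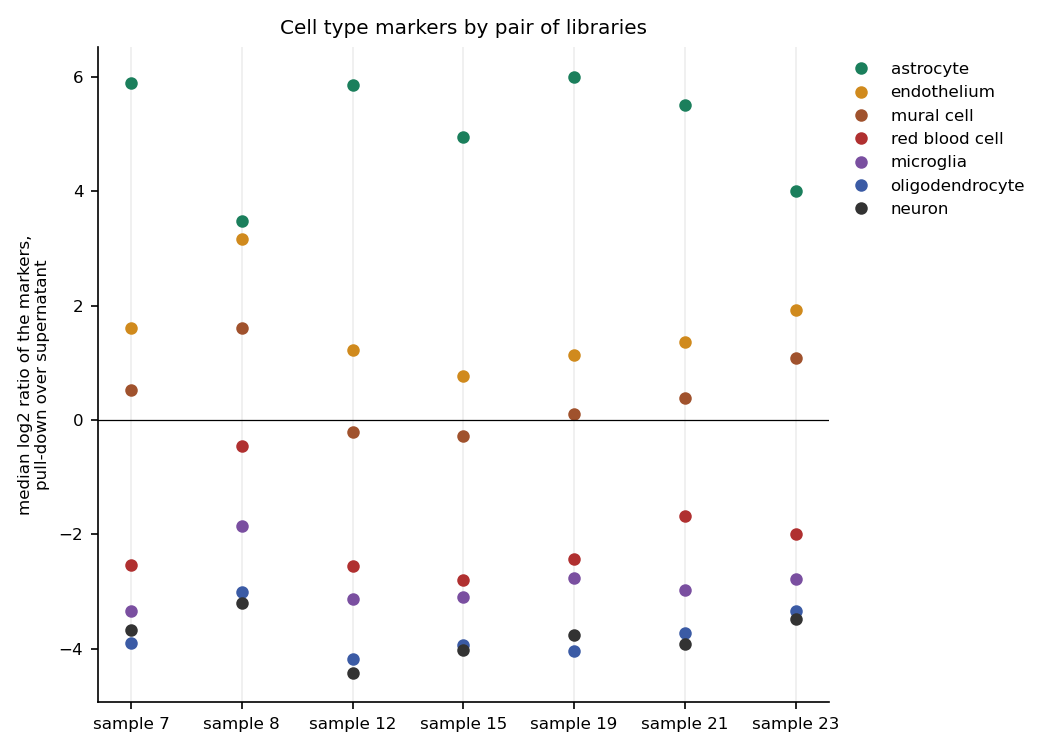
Median log2 ratio of pull-down over supernatant of the markers of 7 cell types in each of the 7 sample numbers. Astrocyte markers have their lowest ratios in samples 8 (3.47) and 23 (4.00), and endothelial markers their highest there (3.16 and 1.93).

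Single genes also differed in steadiness. Among called genes with at least 20 CPM in the pull-down, the smallest SDs of the paired ratio were those of Polr2b, Cct6a, Sept8, Uhrf1bp1l and Tomm70a. Polr2b, a subunit of RNA polymerase II, kept its log2 ratio within 0.73 to 0.83, and Tomm70a, a mitochondrial import receptor, within -1.52 to -1.31. Cct6a, Sept8 and Uhrf1bp1l had log2 fold changes of -0.26 ± 0.08, -0.45 ± 0.09 and -0.37 ± 0.09. The largest SDs under the same minimum, which set no floor in the supernatants, were those of 5 protocadherin gamma genes, Pcdhga8, Pcdhga7, Pcdhga5, Pcdhga10 and Pcdhgb7, surface proteins that give neurons and glia an identity. Pcdhga8 lay between 21.4 and 63.3 CPM in the pull-downs, against 0 to 22.8 CPM in the supernatants, and the supernatants of samples 15 and 19 were the ones at 0, so the ratios of those pairs depend on the prior count and not on a measured level. Without samples 8 and 23 the calls of Pcdhga8 (2.81, adjusted p = 0.0805) and Pcdhga10 (2.49, adjusted p = 0.0509) were lost. These genes share their last exons, where the tags fall, so the split between them is uncertain.

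Messages of receptors were described by class. In a list of G protein-coupled receptors of astrocytes, 15 of 29 tested members were called higher in the pull-down and 11 lower. The other 3 were not called, and the median log2 fold change was 0.54. The share called lower was about that over all genes (38.2%), beside 38.3% of all genes called higher. After S1pr1 the highest were Ednrb, an endothelin receptor, at 5.6 ± 0.43 and Gpr37l1, an orphan receptor of astrocytes, at 5.05 ± 0.31. The lowest were Htr2c for serotonin, Cnr1 for cannabinoids and Drd1 for dopamine, at -4.0 ± 0.21, -3.44 ± 0.19 and -3.31 ± 0.28. Of growth factor and morphogen receptors, 26 of 37 tested members were called higher in the pull-down and 8 lower, with 3 not called and a median log2 fold change of 1.46. Egfr, the epidermal growth factor receptor, had 87.5 CPM (72.5 to 97.4) in the pull-downs, against 2.54 CPM (1.10 to 6.73) in the supernatants (4.89 ± 0.30), and Fzd10, a Wnt receptor, 4.18 ± 0.18. Ret and Gfra1, the glial cell line-derived neurotrophic factor receptors, and Erbb3, a neuregulin receptor, had -4.17 ± 0.31, -2.29 ± 0.15 and -3.8 ± 0.31.

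Receptors of feeding and metabolic hormones were mostly lower. Of 25 tested, 19 were called lower, 5 higher and 1 not called, with a median of -3.19. The clear exception was Ramp1, the partner that turns the calcitonin-like receptor into a receptor for calcitonin gene-related peptide, which had 313 CPM (297 to 341) in the pull-downs, against 13.6 CPM (9.67 to 29.6) in the supernatants (4.35 ± 0.20, adjusted p = 1.35e-09). Ramp2 had 1.81 ± 0.14 and Lepr, the leptin receptor, 1.53 ± 0.33, at a low level of 2.95 CPM (2.00 to 6.61) in the pull-downs, against 1.22 CPM (0.391 to 2.11) in the supernatants. The third partner, Ramp3, went the other way at -4.31 ± 0.23. Hcrtr1, an orexin receptor, and Trhr, for thyrotropin-releasing hormone, had -4.67 ± 0.54 and -4.32 ± 0.45. The second table holds 5.94% of the Trhr counts.

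Secreted factors included strong members in both directions. Of 32 tested, 18 were called higher, 9 lower and 5 not called (median 1.38). Mdk, the growth factor midkine, had 204 CPM (155 to 343) in the pull-downs, against 9.48 CPM (5.18 to 15.6) in the supernatants (4.55 ± 0.25), and the Wnt ligands Wnt7b and Wnt7a had 4.01 ± 0.18 and 3.53 ± 0.15. Fgf9, Shh and Pdgfa, a mitogen for oligodendrocyte precursors, had -4.37 ± 0.20, -4.2 ± 0.51 and -2.98 ± 0.13. In a list of synapse-organising astrocyte proteins, 15 of 28 tested were called higher and 8 lower (median 0.61). The shares over all genes were 38.3% and 38.2%. Beside Sparc the highest were Bcan, the proteoglycan brevican, at 4.64 ± 0.23 and Gpc5, a glypican, at 4.36 ± 0.24. Hapln4, Lrrtm4 and Efnb3 had -4.48 ± 0.17, -3.87 ± 0.31 and -3.31 ± 0.14.

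In Notch signalling a ligand on 1 cell cuts free the receptor's inner part on another, which joins RBPJ and turns on Hes and Hey genes. Of its genes, 20 of 27 tested members were called higher in the pull-down and 3 lower, with 4 not called and a median log2 fold change of 1.56. Lfng, the fringe enzyme that adds sugar to Notch receptors, had 64.2 CPM (38.5 to 79.5) in the pull-downs, against 2.24 CPM (1.45 to 4.99) in the supernatants (4.49 ± 0.21, adjusted p = 1.34e-09). The targets Heyl and Nrarp had 4.4 ± 0.26 and 4.3 ± 0.28. The ligands Jag2 and Dll3 and the inhibitor Numbl had -1.7 ± 0.27, -3.89 ± 0.38 and -1.74 ± 0.11.

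The bases in front of Lfng, the highest of the Notch genes, and of Gfap are shown because both hold the RBPJ core in capitals, as in the Aldh1l1 stretch above. They come from the same RefSeq table, and the 3 genes were chosen with the matches known.
Lfng (chr5:140607091-140607340, + strand): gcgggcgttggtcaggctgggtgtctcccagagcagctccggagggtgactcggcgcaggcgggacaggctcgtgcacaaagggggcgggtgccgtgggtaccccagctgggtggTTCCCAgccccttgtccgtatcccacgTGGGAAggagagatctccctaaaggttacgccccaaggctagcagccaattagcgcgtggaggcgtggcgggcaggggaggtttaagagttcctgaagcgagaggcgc
Gfap (chr11:102897201-102897450, - strand): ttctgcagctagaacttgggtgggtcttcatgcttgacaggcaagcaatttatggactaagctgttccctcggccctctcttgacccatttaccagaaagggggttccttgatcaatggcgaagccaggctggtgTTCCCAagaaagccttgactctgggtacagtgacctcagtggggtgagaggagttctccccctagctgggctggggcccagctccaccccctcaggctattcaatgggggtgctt
The Lfng matches began 135 and 108 bases before the start and the Gfap match 115 bases before it. The motif searched was TGGGAA on both strands in the 250 bases before the first listed start. It was in 21.0% of 1871 such stretches for genes past 2-fold higher in the pull-down, in 19.2% of 1969 for those past 2-fold lower and in 20.2% of 10541 for all genes tested that the table holds. The mean GC contents were 60.1%, 60.4% and 60.3%. In the Notch list 5 of 22 stretches (22.7%) held it, near the share of all genes.

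In the BMP and TGF-beta pathway 17 of 30 tested members were called higher, 5 lower and 8 not (median 0.83). Behind Bmpr1b came Id2, an inhibitor of helix-loop-helix factors and a BMP target, at 4.33 ± 0.20 and Ltbp1, which holds latent TGF-beta, at 3.67 ± 0.27. Tgfbr1, Grem1 and Bmp4 had -0.93 ± 0.15, -1.62 ± 0.55 and -0.42 ± 0.18. The number called lower was 1 without samples 8 and 23, 1 without sample 8 alone or sample 12 alone, 2 without sample 7 and 3 without sample 21. The Grem1 call was lost without sample 12 or 8 (adjusted p of 0.0611 and 0.0562), and the Bmp4 call without sample 7, 8, 12, 15 or 21 (adjusted p of 0.064 to 0.135). In the Hedgehog pathway 9 of 13 members were called higher and 3 lower (median 3.01). The receptor Ptch1 had 506 CPM (384 to 585) in the pull-downs, against 28.9 CPM (25.8 to 59.3) in the supernatants (3.79 ± 0.20) and the factors Gli3 and Gli2 had 4.73 ± 0.26 and 4.52 ± 0.32. The ligand Shh, given above, the coreceptor Cdon (-3.04 ± 0.28) and the decoy receptor Hhip (-0.51 ± 0.19) were lower, the last at an adjusted p of 0.0266 that was 0.0588 without sample 21 and 0.0594 without samples 8 and 23.

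Astrocyte transcription factors were nearly all higher: 27 of 29 were called higher and 2 lower, with a median of 3.11, beside 38.3% of all genes called higher. Dbx2, a homeobox factor, had 139 CPM (104 to 169) in the pull-downs, against 3.59 CPM (2.71 to 11.7) in the supernatants (4.7 ± 0.31), and Sox9 and Rfx4, which set astrocyte identity, had 4.68 ± 0.22 and 4.66 ± 0.25. The 2 lower ones, Lcor and Meis2, had -0.54 ± 0.11 and -1.3 ± 0.10. The second table holds 81.1% of the Lcor counts. Of 27 regional factors of the hypothalamus 21 were called lower and 3 higher (median -3.0). Of the 3, 2 passed the 2-fold test: Nkx2-2, of the ventral neural tube, had 16.3 CPM (12.4 to 17.4) in the pull-downs, against 3.32 CPM (2.44 to 4.59) in the supernatants (2.24 ± 0.15) and Foxb1, of the mammillary region, had 36.0 CPM (27.9 to 39.0) in the pull-downs, against 8.26 CPM (4.98 to 13.6) in the supernatants (2.0 ± 0.19). Nkx2-4 had 0.56 ± 0.19, a call lost without samples 15 and 19 (adjusted p = 0.0806) and without sample 21, 23 or 7 (adjusted p of 0.0719, 0.0725 and 0.0572). Lmx1b, Lhx6 and Lhx8, of neuron classes, had -4.85 ± 0.37, -4.82 ± 0.44 and -4.31 ± 0.32. Of 14 telencephalic factors 10 were called lower and 3 higher (median -2.69). Emx2 and Lhx2 had 0.95 ± 0.21 and 0.95 ± 0.20, and Tbr1, Neurod1 and Lhx5 had -4.19 ± 0.27, -4.01 ± 0.39 and -3.99 ± 0.28.

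**Figure D5:**
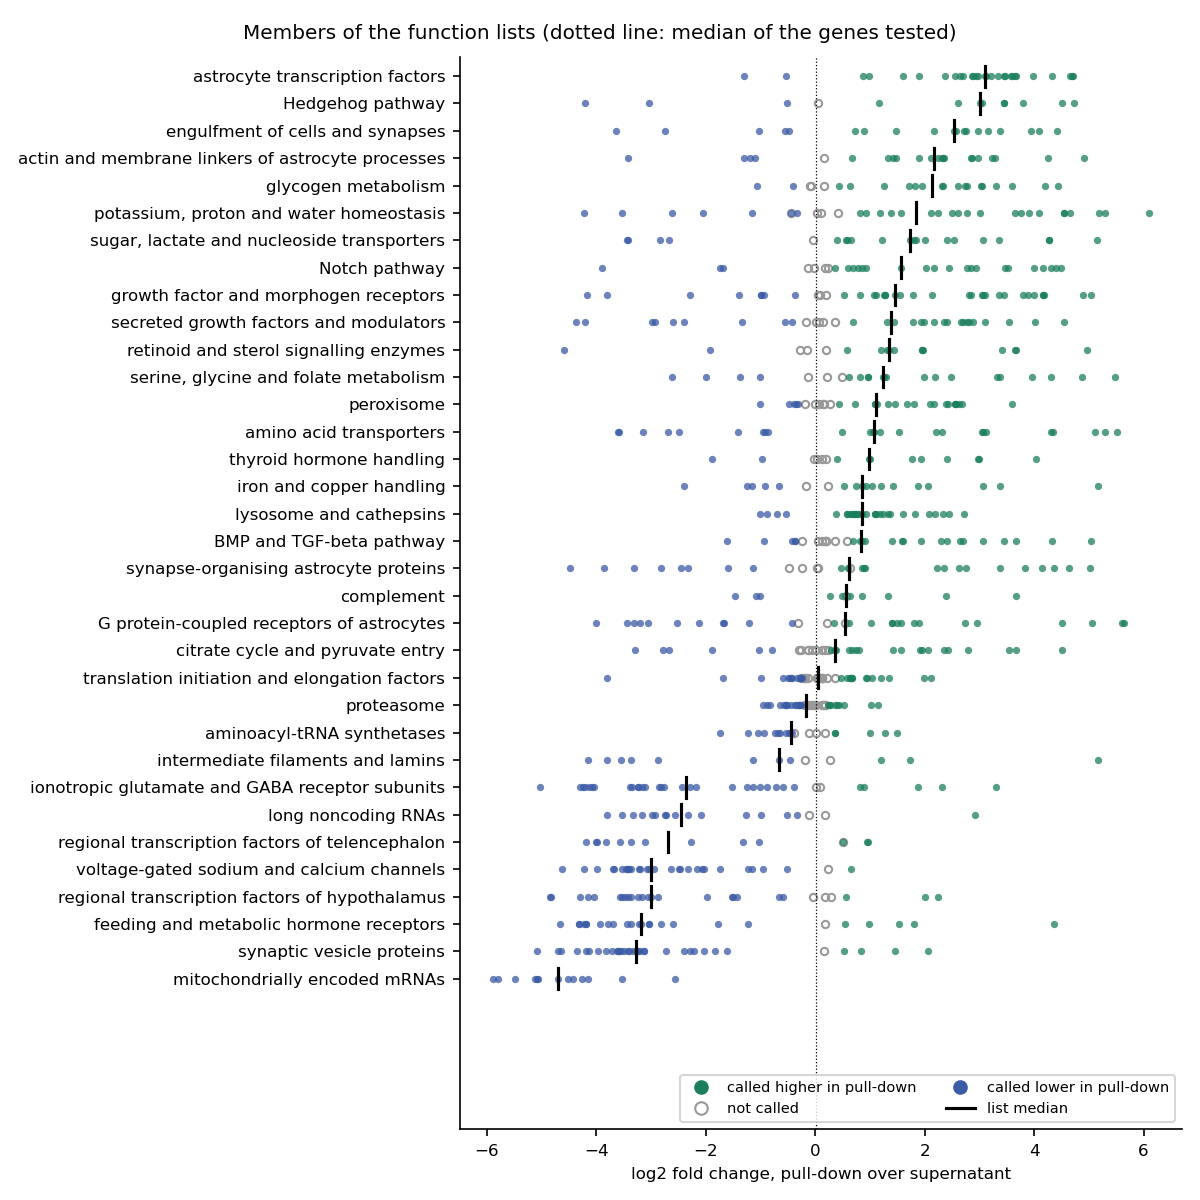
Log2 fold change of pull-down over supernatant of each tested member of the 34 function lists, sorted by list median (black bars). Filled points were called higher (green) or lower (blue), open points were not called, and the dotted line is the median of the genes tested, 0.02. Astrocyte transcription factors (3.11) and the Hedgehog pathway (3.01) have the highest medians and mitochondrially encoded mRNAs (-4.70) the lowest.

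The machinery for clearing ions and transmitters was mostly higher in the pull-down. Of 32 tested genes of potassium, proton and water homeostasis, 21 were called higher, 7 lower and 4 not (median 1.84). Slc4a4, Kcnj16 and Gja1, given above, were the highest. Atp1b1, a beta subunit of the sodium pump, had -3.54 ± 0.18. The potassium channel Kcna5 had -2.62 ± 0.28. Of 25 amino acid transporters 16 were called higher and 9 lower (median 1.06), beside 38.3% higher and 38.2% lower over all genes, so the share called lower was near that of all genes. Slc7a10, which carries small neutral amino acids such as D-serine, Slc25a18, a mitochondrial glutamate carrier, and Slc6a11, a GABA transporter, had 5.51 ± 0.43, 5.28 ± 0.38 and 5.12 ± 0.43. Slc7a3, Slc6a17 and Slc7a14 had -3.61 ± 0.19, -3.58 ± 0.18 and -3.15 ± 0.16. Among 21 carriers of sugars, lactate, nucleosides and other solutes 16 were called higher and 4 lower (median 1.74). The highest carry other solutes: Slc14a1 for urea (5.15 ± 0.37), Slc13a5 for citrate (4.28 ± 0.32) and Slc15a2 for peptides (4.27 ± 0.25). Slc16a7, a lactate carrier of neurons, and Slc2a13, a myo-inositol carrier, had -3.42 ± 0.29 and -2.83 ± 0.19.

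Hormone and lipid handling followed. Of 15 tested genes of thyroid hormone handling 9 were called higher, 2 lower and 4 not (median 0.99). The shares over all genes were 38.3% higher and 38.2% lower. Dio2, the deiodinase that makes active thyroid hormone, had 134 CPM (117 to 217) in the pull-downs, against 7.85 CPM (6.78 to 12.8) in the supernatants (4.04 ± 0.17, adjusted p = 6.69e-10). Thrsp, a target of thyroid hormone, and Slco1c1, a thyroxine carrier, had 2.99 ± 0.16 and 2.98 ± 0.20. Rxrg and Crym had -1.88 ± 0.18 and -0.97 ± 0.27. Of 17 genes of retinoid and sterol signalling 12 were called higher and 2 lower (median 1.34). Hsd11b1, which regenerates active glucocorticoid, had 57.0 CPM (31.5 to 85.3) in the pull-downs, against 1.63 CPM (0.408 to 5.31) in the supernatants (4.96 ± 0.35). Dhrs3, a retinal reductase, and Cyp7b1, an oxysterol hydroxylase, had 3.67 ± 0.16 and 3.65 ± 0.19, while Cyp46a1, the cholesterol hydroxylase of neurons, and Crabp1, a retinoic acid binding protein, had -1.93 ± 0.10 and -4.59 ± 0.48.

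In metabolism the lists leaned to the pull-down with named exceptions. Glycogen genes had 17 of 22 called higher and 2 lower (median 2.13). Pygm, a glycogen phosphorylase, had 152 CPM (97.0 to 254) in the pull-downs, against 5.69 CPM (3.09 to 19.1) in the supernatants (4.44 ± 0.27), and the targeting subunits Ppp1r3g and Ppp1r3c had 4.2 ± 0.31 and 3.6 ± 0.24. Gaa, the lysosomal glucosidase, and Phkg2 had -1.07 ± 0.14 and -0.41 ± 0.13. Without samples 15 and 19 the Phkg2 call was lost (-0.31, adjusted p = 0.0763), which left 1 lower. In serine, glycine and folate metabolism 16 of 23 were called higher and 4 lower (median 1.24). Next to Aldh1l1 stood Cbs, cystathionine beta-synthase (4.88 ± 0.28, listed at 0 in the second table and so uncertain), and Sardh (4.31 ± 0.26). Mthfd2 and Mthfd1l, which also handle folate units, had -2.63 ± 0.17 and -1.99 ± 0.18. Of 33 genes of the citrate cycle and pyruvate entry 18 were called higher, 6 lower and 9 not (median 0.36). Over all genes 38.3% were called higher and 38.2% lower. Glud1, glutamate dehydrogenase, had 2099 CPM (1395 to 2324) in the pull-downs, against 164 CPM (105 to 298) in the supernatants (3.54 ± 0.22), and Suclg2 and Pdk4 had 4.5 ± 0.24 and 3.68 ± 0.40. The aspartate aminotransferases went the other way. Got1, the cytosolic one, had 39.9 CPM (25.3 to 43.6) in the pull-downs, against 369 CPM (279 to 467) in the supernatants (-3.29 ± 0.14), Got2, the mitochondrial one, had -2.78 ± 0.12, and Me3, a malic enzyme, -2.67 ± 0.27.

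Peroxisome genes had 19 of 30 called higher and 5 lower (median 1.12), with Abcd2, a fatty acid carrier, Cat, catalase, and Scp2 at 3.59 ± 0.17, 2.69 ± 0.12 and 2.62 ± 0.14, and Far1, a fatty acyl reductase for ether lipids, at -1.02 ± 0.11. Without samples 15 and 19, 3 were called lower. Of 31 lysosome genes 27 were called higher and 4 lower (median 0.85). Lamp2, Tpp1 and Npc2 had 2.71 ± 0.11, 2.44 ± 0.12 and 2.33 ± 0.11, and Mcoln1 and Neu1 had -1.0 ± 0.26 and -0.7 ± 0.12. In the engulfment list 14 of 19 were called higher and 5 lower (median 2.53). Mfge8, which bridges dying cells to phagocytes, had 703 CPM (437 to 938) in the pull-downs, against 27.0 CPM (16.3 to 64.7) in the supernatants (4.41 ± 0.25), and Axl, a receptor for bridged cells, and Abca1, a lipid pump, had 4.09 ± 0.21 and 3.93 ± 0.17. Elmo1, Tub and Stab1 had -3.64 ± 0.14, -2.74 ± 0.17 and -1.03 ± 0.32, and the Stab1 call was lost without samples 15 and 19 (adjusted p = 0.0562), where 3 of the list were called lower. Of 11 complement genes 7 were called higher and 3 lower (median 0.56), led by C4b at 144 CPM (109.9 to 181) in the pull-downs, against 12.1 CPM (7.45 to 14.4) in the supernatants (3.67 ± 0.15) and C2 (2.38 ± 0.21). The number called higher was 3 without samples 8 and 23 and 4 without sample 21 or 23 alone. Over all genes 38.3% were called higher and 38.2% lower. Cd55 and Cd59a, which shield cells from complement, had -1.47 ± 0.36 and -1.09 ± 0.11.

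Iron and copper genes went both ways. Of 19 tested genes 12 were called higher, 5 lower and 2 not (median 0.85). Heph, the copper oxidase hephaestin that helps iron leave cells, had 77.0 CPM (67.0 to 114) in the pull-downs, against 1.45 CPM (1.02 to 6.42) in the supernatants (5.17 ± 0.32), and Atp7b, a copper pump, and Steap3, an iron reductase, had 3.38 ± 0.22 and 3.07 ± 0.18. The ferritin chains that store iron were lower: Fth1 had 327 CPM (268 to 393) in the pull-downs, against 1616 CPM (1507 to 1936) in the supernatants (-2.4 ± 0.14), and Ftl1 had -1.15 ± 0.11. Steap2 had -1.25 ± 0.15.

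Genes for making and breaking down proteins were close to even. None of 37 proteasome genes passed 2-fold, with 9 called higher, 16 lower and 12 not (median -0.18). The immunoproteasome subunits Psmb9 and Psmb8 had 1.15 ± 0.28 and 1.02 ± 0.17, and Psmd12 and Psmc5 had -0.95 ± 0.10 and -0.88 ± 0.10. The number called higher was 4 without samples 8 and 23 and 4 without sample 21 alone. Of 42 translation factors 14 were called higher, 12 lower and 16 not (median 0.05), both shares somewhat below the 38.3% and 38.2% over all genes. The brakes Eif4ebp1, Eef2k and Eif4ebp2 had 2.12 ± 0.28, 1.98 ± 0.14 and 1.35 ± 0.10. Eef1a2, the elongation factor of neurons and muscle, had 11.5 CPM (8.95 to 33.2) in the pull-downs, against 208 CPM (160.0 to 223) in the supernatants (-3.81 ± 0.27), and Eif4a2 and Eif1a had -1.7 ± 0.13 and -0.99 ± 0.10. Of 20 aminoacyl-tRNA synthetases 11 were called lower and 5 higher (median -0.45), from Gars (-1.74 ± 0.12), Farsb (-1.23 ± 0.12) and Cars (-1.05 ± 0.12) to Dars (1.49 ± 0.10), Eprs (1.26 ± 0.17) and Lars (1.0 ± 0.13).

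Counted by gene, excitable membrane genes lay mostly on the supernatant side, and the exceptions were few. Of 30 genes listed as voltage-gated sodium and calcium channels 28 were called lower and 1 higher (median -3.0). The one higher was Cacng8 (0.65 ± 0.19), and Cacng2, Cacng3 and Cacnb3 had -4.63 ± 0.21, -4.22 ± 0.26 and -4.0 ± 0.20. Despite their names, Cacng8, Cacng2 and Cacng3 encode auxiliary subunits of AMPA receptors. Of 34 ionotropic glutamate and GABA receptor subunits 27 were called lower and 5 higher (median -2.37). Their summed level overlapped between the fractions, at 1802 to 2607 CPM in the pull-downs and 2260 to 2816 CPM in the supernatants. Gria1, an AMPA receptor subunit, had 1069 CPM (692 to 1102) in the pull-downs, against 255 CPM (229 to 348) in the supernatants (1.87 ± 0.14). Grin2c, an NMDA receptor subunit, had 118 CPM (95.2 to 164) in the pull-downs, against 12.0 CPM (6.67 to 18.7) in the supernatants (3.3 ± 0.16), and Gabrg1, a GABA receptor subunit, 353 CPM (290.4 to 382) in the pull-downs, against 69.0 CPM (56.4 to 79.5) in the supernatants (2.31 ± 0.12). Gabrd, Gabra5 and Gabra3 had -5.04 ± 0.38, -4.3 ± 0.22 and -4.24 ± 0.22. Of 35 synaptic vesicle genes 30 were called lower and 4 higher (median -3.28). The summed levels of the vesicle genes and of the sodium and calcium channel list were lower in the pull-downs, with no overlap. Snap23, Snap29 and Vamp3, fusion proteins not restricted to neurons, had 2.05 ± 0.15, 1.45 ± 0.12 and 0.83 ± 0.11, and Slc17a7, which loads glutamate, and Synpr had -5.08 ± 0.24 and -4.64 ± 0.17.

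Among cytoskeleton genes, 3 of 13 intermediate filament genes were called higher, Gfap, Vim (1.73 ± 0.12) and Nes, and 8 were called lower (median -0.66), among them the neurofilament genes Nefm, Nefl and Nefh at -4.16 ± 0.21, -3.38 ± 0.15 and -3.55 ± 0.23 and Ina at -3.81 ± 0.17. In a list of actin and membrane linkers of astrocyte processes, 17 of 22 were called higher and 4 lower (median 2.17). Arhgef26, an exchange factor for small GTPases, had 4.91 ± 0.29, and the integrins Itgb8 and Itga6 had 4.26 ± 0.20 and 3.29 ± 0.12. Itgb4, Ppp1r9a and Cttnbp2 had -3.42 ± 0.16, -1.3 ± 0.12 and -1.19 ± 0.16.

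Whether the difference between the fractions was another one on chow than in the remaining samples was tested as an interaction over all 40 libraries. In edgeR's quasi-likelihood test 0 of 15629 genes (0.0%) were called, with 625 at an unadjusted p under 0.05 and a lowest adjusted p of 0.91. limma voom called 0 as well and DESeq2 called 1, Thtpa, a thiamine triphosphatase, named here because of that call. The deposited tables disagree on Thtpa: over the chow libraries the first holds 223 counts and the second holds 1930, so its level and that call are uncertain. Its mean levels were 0 CPM in the chow pull-downs and 3.13 CPM in the chow supernatants, against 4.13 and 0.914 CPM in the pull-downs and supernatants of the rest. Gfap had log2 fold changes of 5.17 ± 0.23 on chow, against 4.68 ± 0.20 in sham mice and 4.61 ± 0.22 in orchiectomised mice on the high-fat diet (unadjusted p of the interaction 0.0426, adjusted p = 0.910). Aldh1l1 had 5.48 ± 0.34 on chow, against 5.08 ± 0.35 and 4.76 ± 0.33. Among the smallest p were Esr1, the estrogen receptor alpha, with -3.11 ± 0.19 on chow, against -2.49 ± 0.24 in sham mice and -1.35 ± 0.19 in orchiectomised mice on the high-fat diet (unadjusted p = 0.000403, adjusted p = 0.910), and Sytl2, with -3.43 ± 0.16, against -2.66 ± 0.19 in both (unadjusted p = 0.00135, adjusted p = 0.910). The Sytl2 level is uncertain, with 853 counts in the second table against 1212. Skp2, a ubiquitin ligase subunit, was not called on chow, where it had -0.06 ± 0.24, against 0.79 ± 0.26 and 1.22 ± 0.30. In the other direction Pomt1, a protein mannosyltransferase, had 2.09 ± 0.16 on chow, against 1.59 ± 0.16 and 1.49 ± 0.14, and Wfikkn2 had 1.43 ± 0.23, against 0.57 ± 0.25 and 0.46 ± 0.27 (unadjusted p = 0.00246 and 0.00235). Dbhos had under 1 CPM in every group mean. A p that misses the threshold does not show that the difference between the fractions was equal on chow and in the remaining samples. Those samples join sham and orchiectomised mice on the high-fat diet, so diet and orchiectomy cannot be told apart in this test.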

How the data were processed

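RNA of both fractions of hypothalamus was read as 3' tags. The authors deposited estimated counts per gene, made with Trim Galore 0.6.4 and Salmon 1.9.0 on GRCm38 per the submitters' processing notes; its annotation and strand setting: not given in the sources used here. In the 14 chow libraries 12.9% of the non-zero values were not whole, and values were rounded before fitting. A second deposited table holds a signal of the same genes. For comparison, each of its chow libraries was divided by its median ratio of signal to count. After that, 25247 of 26783 shared symbols differed from the estimated counts by less than 0.01. The shares of counts that the second table is said to hold rest on the same scaling. The second table was used as a check and on the log2(value + 1) scale.

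Genes with a count of at least 10 in enough libraries (edgeR's filter) were fitted with edgeR 4.0.16 in R 4.3.3 (TMM scaling, quasi-likelihood test, sample number as a block, Benjamini-Hochberg adjusted p under 0.05), with its test against 2-fold and, over all 40 libraries, the interaction of chow with fraction. The numbers tie each pull-down to a supernatant of the same sample per the labels; the correlation of their deviations is given with the alternatives. DESeq2 1.42.0 and limma 3.58.1 were alternatives. The scripts were tested on simulated data. Of the lists, only the mitochondrially encoded mRNAs and the long noncoding RNAs were given a p-value, as shares of the library. Both lists were chosen with earlier results known, so these p-values are descriptive.

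The genes named are the 4 markers and Rpl10a, the 12 steadiest past 2-fold in each direction, the 10 most abundant of each fraction (mitochondrial genes as a group), the 3 highest and 3 lowest of each of 46 lists with other cell types' markers called higher, the 5 most and 5 least variable, and 3 per direction of the interaction; some genes that the rule picks are not reported here. Members and lists were chosen with earlier results of these data known. The lists hold 979 genes, 973 of them in the table. Gene positions come from GENCODE M21 (GRCm38), which matched 25300 of 26792 symbols (94.4%). Of 268 genes chosen for naming, 74 overlap a gene of the opposite strand and 28 one of the same strand. Depth limits what can be seen of low genes, and errors are those between libraries.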

Additional observations from a re-analysis of the deposited data

Results flagged for a closer look

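Among 116 groups of 7 libraries examined, 11 had a library far from the other 6, where chance gives about 1 in 20 for independent groups. The groups here share genes, as Flt1 is also an endothelium marker, and Pcdhga8 was named for its variable ratios. The 11 can therefore not be set against that rate. The pull-down of sample 8 accounted for most of the 11. It held more of the endothelium markers (1040.907 CPM in sum, against 263.7 to 575.9 CPM in the other pull-downs), the red blood cell markers (1608.572 CPM, against 417.0 to 787.1 CPM) and the microglia markers (117.0805 CPM, against 46.1 to 74.7 CPM). Flt1 was also highest there (362.23 CPM, against 97.2 to 201 CPM), as was the neuronal gene Eef1a2 (33.245 CPM). Pcdhga8 was lowest there (21.392 CPM, against 45.8 to 63.3 CPM). Slc4a4 was highest in the pull-down of sample 21 (6022.1 CPM), S1pr1 in that of sample 12 (2339.7 CPM), Dio2 in that of sample 7 (216.92 CPM) and the fibroblast sum in that of sample 19 (702.6878 CPM). Among the supernatants the mural cell sum was highest in that of sample 15 (91.0219 CPM), which lay below all pull-downs (101.0 to 239.9 CPM).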

How the results depend on the processing

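Over 19 other settings and 268 genes, 5050 fold changes were compared: 4998 kept their direction and call, 48 in 15 genes lost the call, 3 gained it and 1 turned round, that of Skp2, not called on chow (-0.21 to 0.06 with 1 sample left out). All gains were of Rpl10a. The number of genes called was 10327 to 10773 with 1 sample left out, against 10800 with all, and the number past 2-fold was 5145 to 5431. Without samples 8 and 23 it was 10330 called, and without samples 15 and 19 it was 10257. With no replicate block 10834 genes were called (5413 higher, 5421 lower), and of the genes named Bmp4, Hhip, Crym and Lum lost the call. The replicate block rests on labels: the deviations of libraries with the same number correlated at -0.08 to 0.18, highest with their own number in 4 of 7. DESeq2 called 10803 genes, limma voom 10872 and limma 10585 on the second deposited values. Fitting all genes with at least 1 count called 12732 and moved the median of all genes to -0.19. The interaction count was 0 in every fit with a sample left out, and 1 gene (lower) under DESeq2; the cause was not tested. Over the same fits the mean difference of the mitochondrial share lay between -16.3 and -15.4 points, that of Gm42418 between 1.84 and 3.76, of ribosomal protein genes between -1.54 and -1.21, of long noncoding RNAs between -0.909 and -0.801 and of the 100 most abundant genes between -5.78 and -3.91. Depth limits genes near the count filter.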
